A study of Arabidopsis thaliana with 10 samples.

Results

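The 5 genes of *Arabidopsis thaliana* about which little is known, AT1G77960, *EMB975* (AT2G01860), AT4G29990, AT5G44980 and *NAP5* (AT1G71330), are described across wild-type seedlings and 4 late-flowering mutants. They are 5 of the 32548 genes measured. They were chosen by the values themselves: each had log2FC (mutant minus Col-0) of at least 1 with P under 0.01 (limma) in every mutant. The 4 other genes that passed the same rule, *FLC*, *MAF5*, *HOL2* and *MES18*, are not among the 5. Their rise over Col-0 is therefore a description and no test of it is given. Only what the choice did not use was tested, namely their differences among the mutants, the genes beside them on the chromosome and the genes related to them.

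RNA-seq was carried out on 10-day-old seedlings grown at 23°C with 16 h of light and 8 h of dark, with 2 libraries for each of 5 genotypes. Col-0 is the wild type and the background of all mutants. The *fld* and *ld* single mutants and the *sdg26 aprf1* double mutant (allele *aprf1-9*) carry T-DNA insertions, and the *efl2 efl4* double mutant (*elf2/4* in the sample labels) combines a pair of small deletions made with CRISPR/Cas9 and brought together by crossing. Each mutant is 1 line, so a change linked to that line cannot be told apart from the effect of the named mutation. The mutated genes encode members of the autonomous pathway of flowering, which keeps *FLC*, a MADS-box repressor of flowering, at a low level through chromatin.

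The 5 genes belong to unrelated families, and their annotated names come mostly from sequence. AT1G77960 is annotated as a repressor ROX1-like protein, after a yeast repressor, and its role in plants is not known. *EMB975* encodes a protein with tetratricopeptide-like repeats, and EMB names are given to genes whose loss stops the embryo. AT4G29990 encodes a leucine-rich repeat receptor kinase with a malectin-like domain, of the group that holds *FRK1*, a receptor kinase gene widely used as a marker of the response to bacterial flagellin. AT5G44980 encodes an F-box protein of the FBD class, and F-box proteins choose the substrates of SCF ubiquitin ligases. *NAP5* encodes a non-intrinsic ABC protein, an ATP-binding protein without the membrane-spanning part of an ABC transporter.

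Their positions are given in the RefSeq annotation of TAIR10.1. AT1G77960 lies at chr1:29310021-29313571 on the minus strand and has 12 to 13 exons in its 2 transcripts. *EMB975* lies at chr2:388055-389918 on the plus strand in 1 exon. AT4G29990 lies at chr4:14665684-14670030 on the minus strand in 12 exons, AT5G44980 at chr5:18160204-18162264 on the plus strand, and *NAP5* at chr1:26884014-26885169 on the minus strand in 3 exons. Almost every 50-base stretch within their exons occurs once in the genome (98.2% for AT5G44980, 99.9% for *NAP5* and 100% for the other 3), so reads of this length can be placed on them.

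The region around the annotated start, from 250 bases before it to 50 bases after it, is shown for the 3 genes whose levels differed most among the mutants. The sequences are written 5′ to 3′ along the gene's own strand, from the RefSeq TAIR10.1 genome, and capitals mark matches to the motifs searched. AT1G77960 is shown at chr1:29313522-29313821 (minus strand), *EMB975* at chr2:387805-388104 (plus strand) and AT5G44980 at chr5:18159954-18160253 (plus strand).
AT1G77960: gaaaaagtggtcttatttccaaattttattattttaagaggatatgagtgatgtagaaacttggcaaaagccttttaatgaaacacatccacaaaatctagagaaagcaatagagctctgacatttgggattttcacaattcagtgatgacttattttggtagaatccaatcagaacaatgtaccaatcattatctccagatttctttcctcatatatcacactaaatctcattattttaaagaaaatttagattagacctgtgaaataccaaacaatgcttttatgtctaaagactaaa
EMB975: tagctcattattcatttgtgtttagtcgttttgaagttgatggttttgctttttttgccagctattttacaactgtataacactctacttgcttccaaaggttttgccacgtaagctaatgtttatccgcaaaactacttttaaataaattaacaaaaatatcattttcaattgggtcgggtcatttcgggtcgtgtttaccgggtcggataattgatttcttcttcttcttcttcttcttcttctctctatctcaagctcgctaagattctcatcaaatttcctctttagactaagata
AT5G44980: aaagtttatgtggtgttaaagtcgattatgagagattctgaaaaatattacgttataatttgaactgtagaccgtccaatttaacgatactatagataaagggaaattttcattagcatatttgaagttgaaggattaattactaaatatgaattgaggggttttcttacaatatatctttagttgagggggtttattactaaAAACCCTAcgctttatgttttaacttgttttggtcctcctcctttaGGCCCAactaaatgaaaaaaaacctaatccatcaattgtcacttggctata

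In all, 7 motifs were searched on both strands in the start regions of 27443 protein-coding genes. The telo-box AAACCCTA, found in 6.22% of all start regions, and the site II element TGGGCC, found in 15.5%, each occurred in AT5G44980 alone among the 5 genes. In AT5G44980 the telo-box begins at position -47 from the start and the site II element, read on the other strand, spans the start itself from position -1. TATAAA occurred in 52.1% of all start regions and in those of AT4G29990 and *NAP5*. The CArG box (3.05% of all), which MADS-box proteins such as FLC bind, the G-box CACGTG (7.68%), the evening element AAATATCT (5.65%) and the W-box core TTGACC (14.2%) occurred in 0 of the 5. These are matches of letters in a 300-base window and not binding sites. The GC content of the 5 start regions was 30 to 36.3%, beside a median of 32.0% over all genes, and the 5 regions shared no searched motif.

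Reads on genes numbered 20455413 to 20768023 per library, so the whole reads of a gene can be set side by side. The 4 comparisons with Col-0 share the same 2 Col-0 libraries. Among the mutated genes, *FLD* had a log2FC of -3.43 in *fld*, *SDG26* (*ASHH1*) -2.44 in *sdg26 aprf1*, *LD* -0.81 in *ld*, and *APRF1* (AT5G14530) -0.76 in *sdg26 aprf1*. *EFL2* and *EFL4*, which carry small deletions, had -0.51 and -0.38 in *efl2 efl4*. The leaf genes *RBCS1A*, *RCA* and *CAB1* had at least 84558 reads in each library and the root genes *CASP1*, *SHV2* and *EXPA7* at least 156 in each, while the floral organ genes *AP3*, *AG* and *PI* had at most 12. The seed storage gene *CRA1* had 106 reads in the second *efl2 efl4* library and at most 8 elsewhere, and its part in the results was not tested.

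AT1G77960 had the largest fold change of the 5 genes in *fld*, *ld* and *efl2 efl4*. It had 37 and 25 reads in Col-0, 214 and 166 in *fld*, 290 and 242 in *ld*, 181 and 153 in *efl2 efl4*, then 199 and 123 in *sdg26 aprf1*. The lowest mutant library, the second of *sdg26 aprf1*, was 3.32-fold above the higher Col-0 library in CPM (reads scaled to a common library size). The choice of the gene for its rise favoured such a gap. In *ld* its log2FC was 3.11 ± 0.25 (SE), an 8.73-fold rise in mean CPM. The log2FC was 2.60 ± 0.27 in *fld*, 2.41 ± 0.26 in the *efl2 efl4* mutant and 2.33 ± 0.33 in *sdg26 aprf1*. Per length, its level went from 0.866 ± 0.244 RPKM (reads per kilobase at that library size, mean ± SD, n = 2) in Col-0, above 6.99% of the 20057 genes with a mean of at least 10 reads, to 7.56 ± 0.916 RPKM in *ld*, above 43.6% of them.

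*EMB975* was the most abundant of the 5 per length in Col-0, and it was highest in *sdg26 aprf1*. Its reads were 87 and 103 in Col-0, 193 and 313 in *fld*, 249 and 323 in *ld*, 187 and 198 in *efl2 efl4*, then 480 and 491 in *sdg26 aprf1*. Both *sdg26 aprf1* libraries were above all 8 others, and the *efl2 efl4* libraries were the nearest to Col-0 on average. The log2FC was 2.36 ± 0.14 in *sdg26 aprf1*, 1.6 ± 0.19 in *ld*, 1.37 ± 0.27 in *fld* and 1.01 ± 0.16 in *efl2 efl4*. The level rose from 2.46 ± 0.271 RPKM in Col-0 to 12.7 ± 0.0914 RPKM in *sdg26 aprf1* (n = 2 each), from above 19.8% to above 58.7% of genes. *EMB975* shares 24.1% of its exon bases with AT2G01870 and 12.6% with the non-coding gene AT2G04125, both on the opposite strand. Whether counting used strand is not given in the sources used here, so how reads in these stretches were assigned between the genes is not known.

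AT4G29990, the receptor kinase gene, had mean levels close to one another in the mutants, though equal levels were not shown. It had 35 and 38 reads in Col-0, 130 and 131 in *fld*, 121 and 144 in *ld*, 91 and 148 in *efl2 efl4*, then 114 and 121 in *sdg26 aprf1*. The widest gap between replicates was in *efl2 efl4*. Its log2FC ran from 1.64 ± 0.28 in *efl2 efl4* to 1.85 ± 0.19 in *ld*. Its level per length was low throughout, 0.527 ± 0.0260 RPKM in Col-0 and 1.71 to 1.95 RPKM in the mutants, which is above 14.6 to 16.7% of genes.

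AT5G44980, the F-box gene, had the fewest reads in Col-0 and the most in *sdg26 aprf1*. It had 12 and 14 reads in Col-0, 47 and 42 in *fld*, 42 and 49 in *ld*, 66 and 62 in *efl2 efl4*, then 79 and 85 in *sdg26 aprf1*. The *fld* and *ld* libraries overlapped each other, the *efl2 efl4* libraries lay above them, and the *sdg26 aprf1* libraries lay above those. The log2FC was 2.58 ± 0.23 in *sdg26 aprf1*, 2.22 ± 0.24 in *efl2 efl4*, 1.75 ± 0.26 in *ld* and 1.70 ± 0.24 in *fld*. Even in *sdg26 aprf1* its level, 2.01 ± 0.0864 RPKM, was above only 16.7% of genes, and in Col-0 it was 0.316 ± 0.0316 RPKM, above 1.19%.

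*NAP5* rose least on average over the mutants, and its mean rise was similar in each, though an equal rise was not shown. It had 29 and 23 reads in Col-0, 72 and 50 in *fld*, 72 and 62 in *ld*, 50 and 71 in *efl2 efl4*, then 71 and 59 in *sdg26 aprf1*. The libraries of the mutants overlapped one another. The log2FC was 1.17 ± 0.28 in *efl2 efl4*, 1.19 ± 0.28 in *fld*, 1.3 ± 0.24 in *sdg26 aprf1* and 1.36 ± 0.23 in *ld*. Its level was 1.29 ± 0.221 RPKM in Col-0 and 3.0 to 3.38 RPKM in the mutants.

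**Figure D1:**
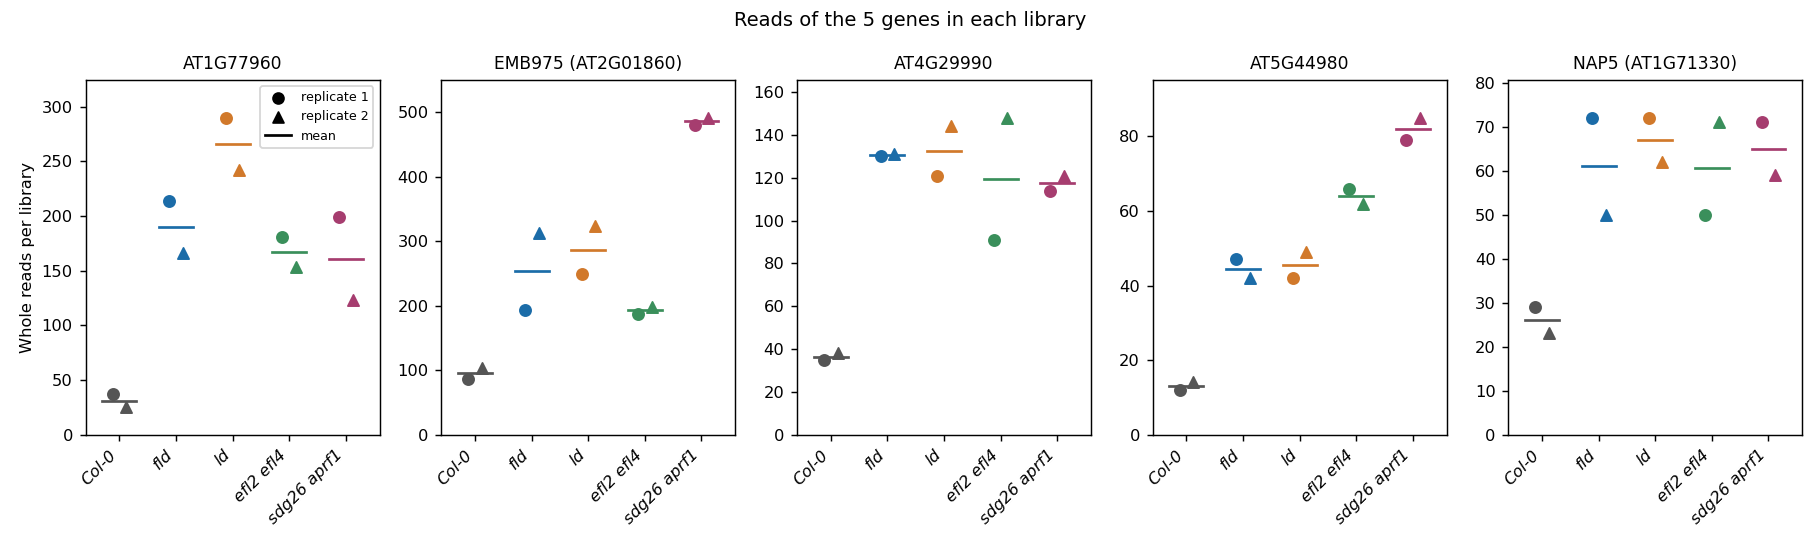
Whole reads of the 5 genes in each of the 10 libraries, by genotype, on a linear axis that starts at 0 in each panel. Circles are replicate 1, triangles replicate 2 and bars the mean of the 2. For every gene the 8 mutant libraries lie above the 2 Col-0 libraries, a separation that the choice of the genes favoured. The share of all genes with that separation is not given. *EMB975* is highest in *sdg26 aprf1* (480 and 491 reads) and AT1G77960 in *ld* (290 and 242).

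By mean level, the order of the mutants was *ld*, *fld*, *efl2 efl4* and *sdg26 aprf1* from high to low for AT1G77960, and *sdg26 aprf1*, *ld*, *fld* and *efl2 efl4* for *EMB975*. For AT5G44980 it was *sdg26 aprf1*, *efl2 efl4*, *ld* and *fld*. For AT4G29990 the 4 mutant means lay between its *efl2 efl4* libraries, at 4.38 and 7.18 CPM. Its *fld* libraries, at 6.28 and 6.36 CPM, were both above its *sdg26 aprf1* libraries, at 5.59 and 5.86 CPM. For *NAP5* the 4 mutant means lay between its *fld* libraries, at 2.43 and 3.48 CPM.

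All 5 genes passed the rule in each mutant because the rule required it. The rule also favoured genes whose mutant libraries lie above both Col-0 libraries, and the share of all genes with that separation is not given here. The share of all genes tested that had a log2FC of at least 1 with P under 0.01 (limma) was 0.219% in *fld*, 0.26% in *ld*, 0.215% in the *efl2 efl4* mutant and 0.394% in *sdg26 aprf1*. Over all 4 mutants, 13 genes had P under 0.01 and a higher level in each, and 9 of these had a log2FC of at least 1 in each. The members of that group nearest to the threshold were *EMB975*, whose smallest log2FC was 1.01, and *MES18*, a methyl esterase gene, with 1.03. Just outside it were AT1G06420, annotated as a DNA ligase-like protein, with a smallest log2FC of 0.81, and *RLP35*, a receptor-like protein gene, with 0.65. Leaving out 1 library took the log2FC of 2 of the 5 genes below 1. For *EMB975* in *efl2 efl4* it was 0.90 without the first Col-0 library and 0.97 without that mutant's second, and a pseudocount of 5 gave 0.98. For *NAP5* it was 0.92 in *efl2 efl4* without that mutant's second library and 0.94 in *fld* without that mutant's first.

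The replicate numbers moved with the levels of some of the genes. This was not limited to them: over 20057 genes the replicate differences correlated between pairs of genotypes at 0.438 to 0.720. AT1G77960 had more CPM in replicate 1 than in replicate 2 in 5 of 5 genotypes, by 1.17-fold in *efl2 efl4* to 1.64-fold in *sdg26 aprf1*. *EMB975* had less in replicate 1 in 5 of 5 genotypes, with a ratio of replicate 1 to replicate 2 of 0.614 in *fld* to 0.99 in *sdg26 aprf1*. Set against the Col-0 library of the same number, AT1G77960 was 7.91-fold and 9.98-fold higher in *ld*, and *EMB975* was 5.57-fold and 4.81-fold higher in *sdg26 aprf1*. The widest gap was that of *NAP5* in *efl2 efl4*, 1.71-fold in replicate 1 and 3.12-fold in replicate 2. All 40 ratios within a replicate number were above 1, which the choice of the genes favoured, and the 40 share the same 2 Col-0 libraries.

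**Figure D2:**
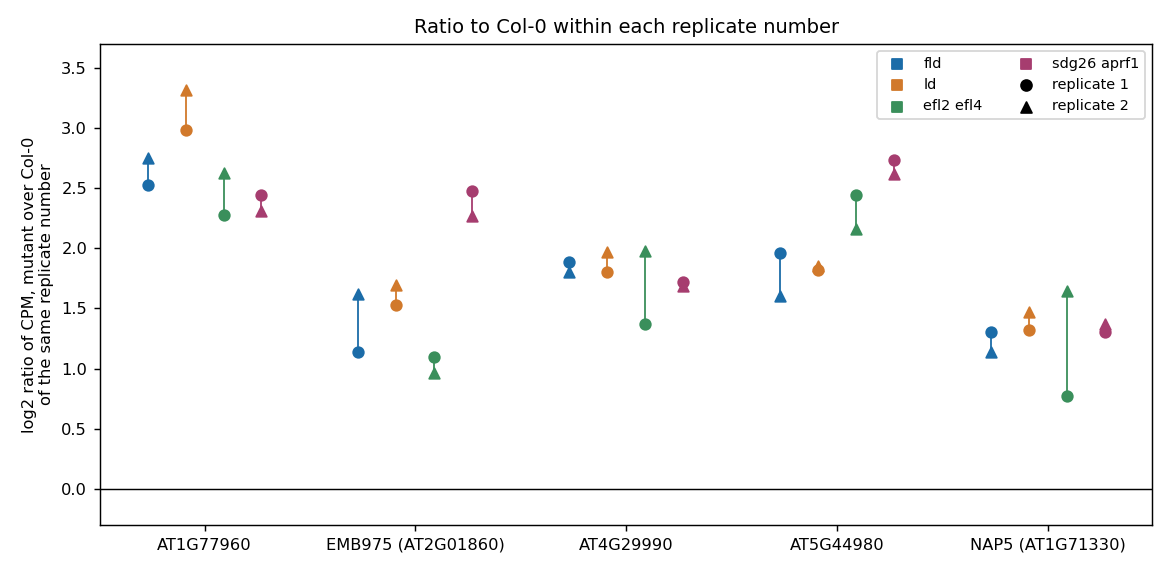
Ratio of CPM of each mutant library to the Col-0 library of the same replicate number, on a log2 scale, for the 5 genes. Circles are replicate 1, triangles replicate 2, a line joins the 2 values of a mutant, and the horizontal line marks no difference. All points lie above it, which the choice of genes for a rise over Col-0 favoured, and the lowest, *NAP5* in the first *efl2 efl4* library, is 1.71-fold.

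Which mutants differ from one another is a question the choice of genes did not use directly, although the requirement of a rise in all 4 narrows the differences that can be seen. It was tested on the reads of the 8 mutant libraries. By edgeR's quasi-likelihood F test, 0 of the 5 genes had an adjusted p under 0.05, beside 0.0998% of the 20034 genes tested. The adjusted p was 0.414 for AT5G44980, 0.417 for *EMB975*, 0.899 for AT1G77960 and 1 for AT4G29990 and for *NAP5*. Without adjustment 2 of the 5 had a p under 0.05, 0.00323 for AT5G44980 and 0.00333 for *EMB975*, where 5.68% of all genes did. By DESeq2 1 of the 5 passed, *EMB975* with an adjusted p of 7.01e-04, beside 0.624% of all genes, and by limma 0 did.

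With the replicate number as a block, 2 of the 5 genes differed among the mutants, *EMB975* with an adjusted p of 0.00499 and AT1G77960 with 0.028, and 3.29% of all genes passed the same test. AT5G44980 stayed above the threshold at 0.0561. AT4G29990 and *NAP5* were at 0.81 and 0.938.

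Between pairs of mutants, 30 differences were tested, 6 pairs for each gene. Without the block 0 of the 30 had an adjusted p under 0.05, and 10 had an unadjusted p under 0.05, beside 5.03% of the differences of all genes over the 6 pairs. DESeq2 called 1, beside 0.208% of the differences of all genes, and limma called 0. With the block 5 of the 30 passed, in 4 pairs of mutants. *EMB975* was 2.55-fold higher in *sdg26 aprf1* than in *efl2 efl4*, a log2 difference of 1.35 with a 95% interval of 1.01 to 1.69 and an adjusted p of 0.0017 with the block (0.152 without), in a pair where 3.31% of all genes passed. It was 1.93-fold higher in *sdg26 aprf1* than in *fld*, with an adjusted p of 0.0144 with the block (0.642 without), and AT5G44980 was 1.85-fold higher in the same pair, with 0.0482 (0.424 without), beside 1.53% of all genes. AT1G77960 was lower in *efl2 efl4* than in *ld*, by a log2 difference of -0.70 with an adjusted p of 0.0238 with the block (0.643 without) and 2.18% of all genes passing. It was lower in *sdg26 aprf1* than in *ld*, by -0.75, with 0.044 (1 without) and 0.484% of all genes passing.

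For AT4G29990 and *NAP5* none of the 6 pairs passed with or without the block. The intervals without the block bound what could have gone unseen. For AT4G29990 the one that reached farthest from 0 ran from -0.73 to 0.36 on the log2 scale, for *sdg26 aprf1* against *ld*, and for *NAP5* it ran from -0.78 to 0.43, for *efl2 efl4* against *ld*. These data do not show that the mutants act alike on either gene.

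**Figure D3:**
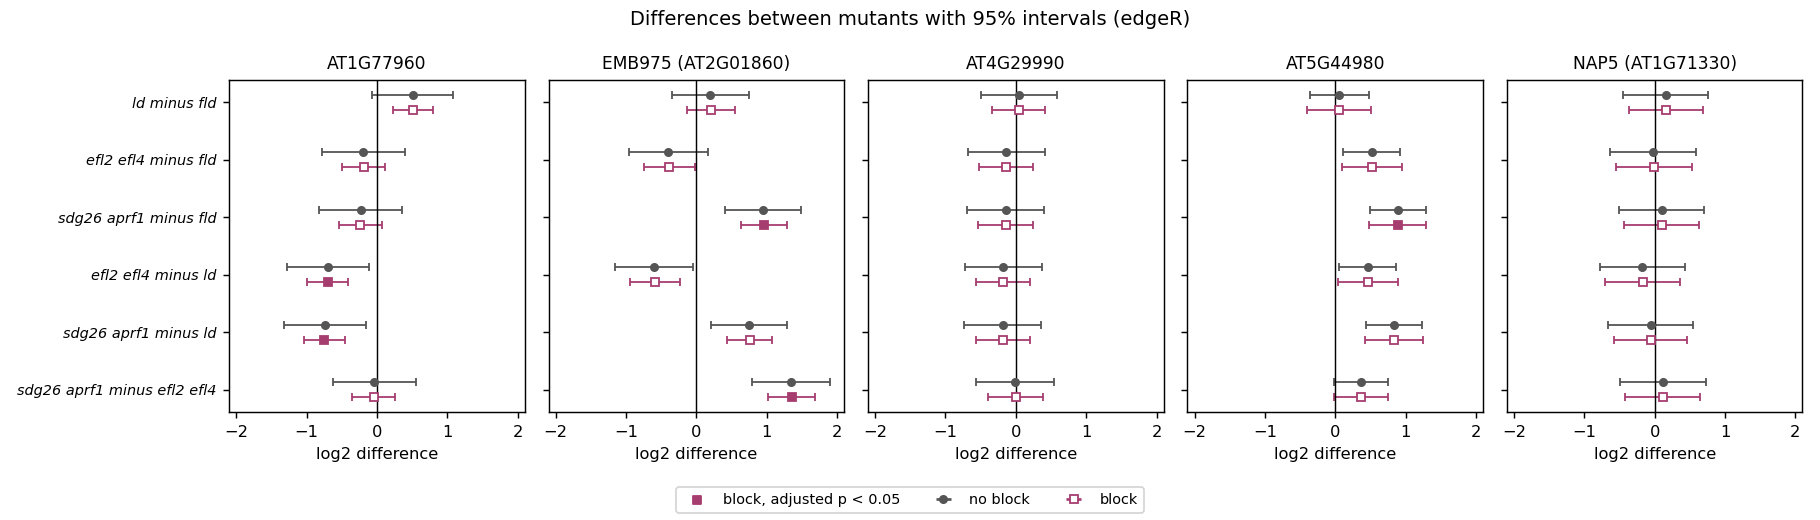
Log2 differences between each of the 6 pairs of mutants (edgeR, 8 mutant libraries), with 95% intervals, for the 5 genes. Grey circles are the fit without the replicate block and purple squares the fit with it, filled where the adjusted p was under 0.05. The 5 filled squares are 2 of AT1G77960, 2 of *EMB975* and 1 of AT5G44980, and those of *EMB975* reach a log2 difference of 1.35.

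The genes whose pattern over the 10 libraries was most like that of each of the 5 were found by Pearson correlation of log2(CPM + 1). The points are libraries that share a genotype in pairs and Col-0 lies apart in each, so the values are a description. For AT1G77960 they were *MES18* (r = 0.990) and AT1G22230, annotated as a nucleolar GTP-binding protein (r = 0.945). For *EMB975* they were the non-coding AT2G07042 (r = 0.9465) and AT1G70790, a lipid-binding protein with a CaLB domain (r = 0.946). For AT4G29990 they were AT1G06420, the gene just outside the threshold (r = 0.961), and AT5G14350, a pentatricopeptide repeat protein (r = 0.958). For AT5G44980 they were AT3G45080, a nucleoside triphosphate hydrolase (r = 0.954), and AT5G48980, a kelch repeat protein (r = 0.949). For *NAP5* they were AT3G12180, of the cornichon family (r = 0.955), and *ENA*, a DnaJ-type zinc finger protein (r = 0.941). Among the 5 genes themselves the correlations were 0.680 to 0.923 over all 10 libraries. Over the 8 mutant libraries they were -0.610 to 0.508, and AT1G77960 and AT5G44980 gave the lowest value.

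The chromosome around each gene was then examined. Neighbours were the 3 nearest annotated genes on each side and any gene that overlaps, 33 in all. Of these, 14 were under the filter of a mean of 10 normalized reads in all 4 tables, 7 of them without a read in any library and the rest with at most 4 reads in a library. The other 19 were tested. By limma 0 of the 19 passed the rule of an absolute log2FC of at least 1 with P under 0.01 in each mutant, beside 0.394% of all genes in *fld*, 0.504% in *ld*, 0.434% in the *efl2 efl4* mutant and 0.498% in *sdg26 aprf1*, and edgeR and DESeq2 gave 0 as well. At an unadjusted P under 0.05 the count was 1 in *fld*, 1 in *ld*, 1 in the *efl2 efl4* mutant and 0 in *sdg26 aprf1*, where 3.79%, 4.26%, 4.7% and 4.56% of all genes passed. The log2FC of the 19 neighbours ran from -0.94 to 0.37 over the 4 mutants.

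*NAP5* gives the closest comparison. *GDPD4*, a glycerophosphodiester phosphodiesterase gene on the same strand, ends where *NAP5* begins, with 0 bases between them. *GDPD4* had 598 and 583 reads in Col-0 and 549 to 683 in the mutants, with log2FC of -0.06 to 0.13, beside 1.17 to 1.36 for *NAP5*. On the other side, 195 bases away and on the opposite strand, the F-box gene AT1G71320 had 1 read in 1 library and 0 in the other 9, under the 3 reads that a count of 0 allows.

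AT4G29990 lies between genes on its own strand, 125 bases from AT4G30000 upstream and 100 bases from AT4G29980 downstream. AT4G30000, which encodes an enzyme of folate synthesis, had 164 and 150 reads in Col-0 and 114 to 191 in the mutants, with log2FC of -0.20 to 0.15. AT4G29980, a fasciclin-like arabinogalactan protein gene, had at most 2 reads in any library.

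AT1G77960 overlaps *AGL67* on the opposite strand, in 14.3% of its exon bases, and the next gene upstream, 1269 bases away, is *AGL66*. Both encode MADS-box proteins, the class of *FLC* and *MAF5*. *AGL67* had 1 read in each *ld* library and 0 in the other 8, and *AGL66* had 1 read in 1 *efl2 efl4* library and 0 elsewhere. The shared stretch is 17.5% of the exon bases of *AGL67*. How reads there were assigned between AT1G77960 and *AGL67* is not known.

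Beside *EMB975*, AT2G01870 shares 48% of its own exon bases with that gene. AT2G01870 had 78 and 76 reads in Col-0 and 59 to 106 in the mutants, with log2FC of 0.00 to 0.17. AT2G04125 had 0 reads in every library, but 100% of its exon bases lie within *EMB975*. Since the counting of shared bases is not known, this 0 may not show that it was silent. The reads of AT2G01870 have the same limit. *EXGT-A3*, an endoxyloglucan transferase gene that acts on the cell wall, ends 576 bases upstream. It had 1755 and 2510 reads in Col-0 and 1900 to 3051 in the mutants, and like *EMB975* it was higher in replicate 2 in each genotype. Its log2FC of 0.31 in *ld* had an adjusted p of 1 (limma) and, with the replicate block, 0.0119. *WOL*, a cytokinin receptor gene 18347 bases away, was lower in *fld* and *ld*, at 599 and 599 reads and 654 and 608 reads, than in Col-0, at 960 and 824. Its log2FC was -0.57 in *fld* and -0.47 in *ld*, with adjusted p of 0.954 and 0.985 (limma) and, with the block, 0.0039 and 0.00794. With the block and an adjusted p under 0.05, a setting added after seeing the data, 1 neighbour passed in *fld* and 2 passed in *ld*, where 2.25% and 3.38% of all genes did.

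The neighbours of AT5G44980 had few reads. AT5G44960 and AT5G44970, FBD genes like it and on the same strand within 4812 bases upstream, had 0 reads in all 10 libraries. AT5G45000, a TIR-NBS-LRR disease resistance gene downstream, had 31 and 42 reads in Col-0 and 16 and 21 in *efl2 efl4*, a log2FC of -0.94 ± 0.30 with an adjusted p of 0.999 by limma.

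**Figure D4:**
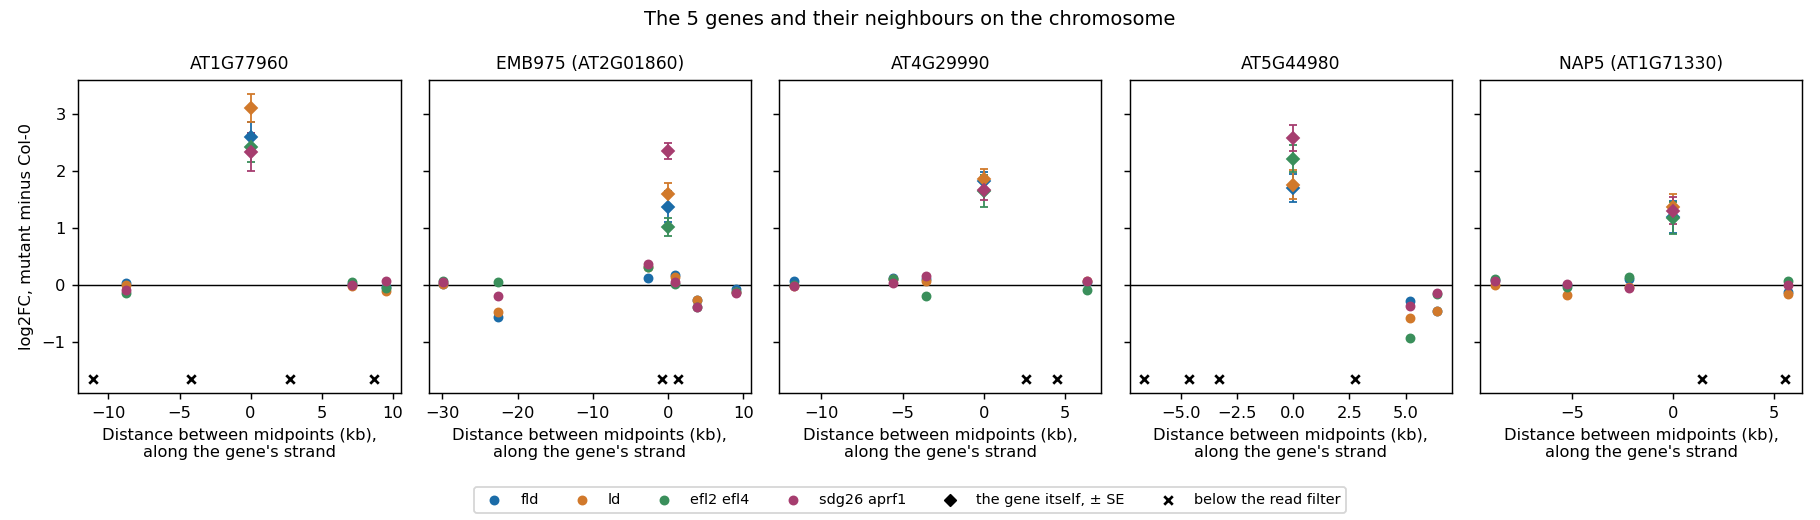
Log2FC (mutant minus Col-0) of the 5 genes, as diamonds with their SE at distance 0, and of their tested neighbours, as circles, against the distance between midpoints in kilobases along the gene's strand. Crosses at the bottom are neighbours under the read filter. The tested neighbours lie between -0.94 and 0.37, and the 5 genes were chosen for values of at least 1.

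The relatives of the genes were taken from fixed lists, 430 genes in all: 255 EMB genes, 114 FBD F-box genes, 41 malectin-like kinases, 14 NAP genes and 13 closest paralogs by protein sequence, with 7 genes in 2 of these lists. Of these, 324 to 325 were tested in each table. By the same rule 0 of them passed in *fld*, 1 in *ld*, 2 in the *efl2 efl4* mutant and 1 in *sdg26 aprf1*, where 0.394%, 0.504%, 0.434% and 0.498% of all genes passed. At an unadjusted P under 0.05 they were 10, 10, 16 and 15, where 3.79%, 4.26%, 4.7% and 4.56% of all genes passed. The same rule with the replicate block gave 0, 1, 3 and 1, the added gene being the FBD F-box gene AT1G48400 in *efl2 efl4*, where 0.844% of all genes passed. AT1G48400 passed the read filter only through that mutant. No relative had an adjusted p under 0.05 by limma. With the replicate block 5, 5, 7 and 0 did, where 2.25%, 3.38%, 2.86% and 0.0399% of all genes passed.

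Of the 13 closest paralogs, 7 were tested and 0 passed the rule. AT1G28630, which has 32.8% identity with AT1G77960 over 360 residues and was its only match, had at most 3 reads in a library. For AT5G44980 the closest, AT5G44960 (67.3% identity over 437 residues), had no read, while AT2G26030 (50.8%) had 174 and 192 reads in Col-0 and 193 to 308 in the mutants, with the highest values, 257 and 308, in *sdg26 aprf1*. Its log2FC there was 0.63 ± 0.15, with an adjusted p of 0.785 by limma. For *NAP5* the closest was *ABCC3*, a multidrug resistance-associated transporter gene (89.4% over 310 residues), with 1475 and 1855 reads in Col-0 and 1536 to 1951 in the mutants and log2FC of 0.07 to 0.22. *FRK1*, the closest to AT4G29990 (66.3% over 881 residues), had 17 and 16 reads in Col-0 and 6 to 11 in the mutants. It passed the read filter largely through Col-0, which favours a lower value in the mutants. Its log2FC was -1.06 in *fld*, -0.88 in *ld*, -0.68 in the *efl2 efl4* mutant and -0.87 in *sdg26 aprf1*, with adjusted p of at least 0.999 by limma in each.

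Most FBD F-box genes, the family of AT5G44980, had values above Col-0, and most malectin-like kinases, the family of AT4G29990, had values below it. Of 31 to 32 FBD F-box genes tested, 78.1% had a log2FC above 0 in *fld*, 71.0% in *ld*, 71.9% in the *efl2 efl4* mutant and 87.1% in *sdg26 aprf1*, where 49.2 to 50.2% of all genes did. Their median log2FC was 0.16, 0.14, 0.19 and 0.30 in these mutants, beside a median over all genes of 0.00 in each. At P under 0.05, 4 of 32 were higher in *fld*, 3 of 31 in *ld*, 6 of 32 in the *efl2 efl4* mutant and 10 of 31 in *sdg26 aprf1*, and 0 were lower in any, where 2.09%, 2.34%, 2.67% and 2.68% of all genes were higher. Of these genes AT5G35926 passed the rule in 2 mutants: it had 36 and 41 reads in Col-0 and 141 and 171 in *sdg26 aprf1*, and its mean in *ld* was 92.2 ± 12.6 normalized reads (SD, n = 2) beside 38.2 ± 3.21 in Col-0. Its log2FC was 1.25 in *ld* and 2.0 in *sdg26 aprf1*, with adjusted p of 0.711 and 0.202 by limma and, with the block, 0.0122 and 0.0672. AT1G48400, which passed the rule with the block alone, had 6.49 ± 3.47 normalized reads in Col-0 and 19.5 ± 2.18 in *efl2 efl4* (SD, n = 2 each). Its log2FC was 1.53, with an adjusted p of 0.992 by limma and 0.121 with the block. Its Col-0 mean was under the filter of 10, so it was tested only through *efl2 efl4*. Its call and its place in the shares above were favoured by the filter.

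Of 29 malectin-like kinases tested, 3 had a log2FC above 0 in *fld*, 8 in *ld*, 11 in the *efl2 efl4* mutant and 7 in *sdg26 aprf1*, with medians of -0.18, -0.14, -0.09 and -0.19. AT5G59670 and AT4G20450 passed the rule in *efl2 efl4*. AT5G59670 had 397 and 358 reads in Col-0 and 162 and 115 in *efl2 efl4*, a log2FC of -1.46 with an adjusted p of 0.403 by limma and 4.40e-05 with the block. Its reads were 244 and 198 in *fld*, 265 and 129 in *ld*, then 384 and 202 in *sdg26 aprf1*. AT4G20450 had 35 and 42 reads in Col-0 and 18 and 16 in *efl2 efl4*, a log2FC of -1.13 with an adjusted p of 0.792 by limma and 0.0787 with the block. It had 18 and 28 reads in *fld*, 21 and 18 in *ld*, then 33 and 22 in *sdg26 aprf1*. Of the 247 EMB genes tested, 36.4% had a log2FC above 0 in *fld* and 32.8% in *ld*. The shares were 42.1% in the *efl2 efl4* mutant and 46.2% in *sdg26 aprf1*. Over all genes tested, 49.2 to 50.2% had a log2FC above 0. The medians of the EMB genes were close to 0, at -0.04 to -0.01, and *EMB975* itself was chosen for its rise. The 13 NAP genes had medians of -0.02 to 0.02, and 0 of either list passed the rule. The 4 comparisons of a family share their Col-0 libraries, and genes of one family are not independent of one another.

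**Figure D5:**
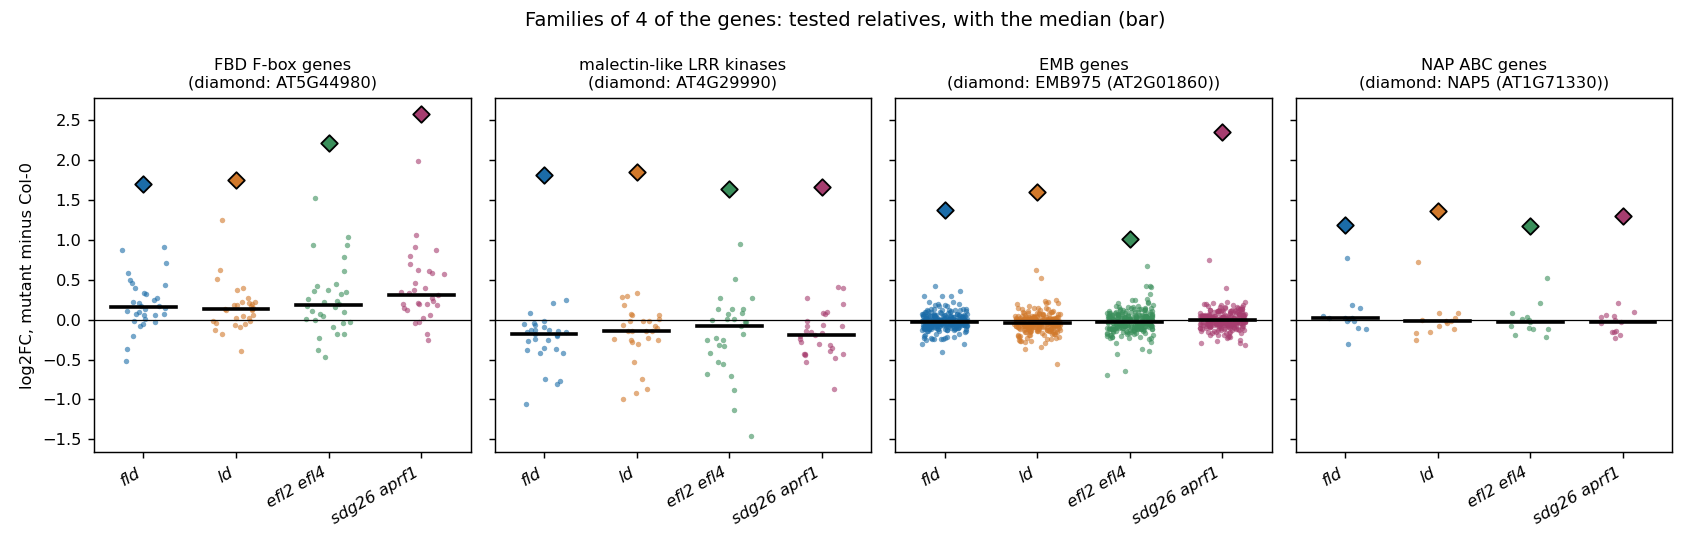
Log2FC (mutant minus Col-0) of the tested genes of 4 families, one point a gene, with the median as a bar and the gene that was chosen for its rise as a diamond. The medians of FBD F-box genes are 0.14 to 0.30 and those of malectin-like kinases -0.19 to -0.09. The height of the diamonds reflects the choice of genes with a log2FC of at least 1 in every mutant.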

How the data were processed

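RNA-seq libraries of 5 genotypes, 2 each, were analysed from the deposited signal, which is normalized reads per gene. The authors aligned single-ended reads of 50 bases to TAIR10 with HISAT2, counted reads on exons with featureCounts and scaled them with edgeR, separately in each of 4 tables of 1 mutant with the same 2 Col-0 libraries. The gene annotation and the strand setting are not given in the sources used here. Nothing in these sources says whether the 2 libraries of a genotype came from separate plantings, so p-values measure the spread between libraries, and counting floors cover counting error only.

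Whole reads were recovered by dividing the values of each library by what 1 read is worth there, with 98.9 to 100% of values whole within 0.1, and the Col-0 reads from the 4 tables were identical. In the *sdg26 aprf1* table the second library of each genotype had a step so near 1 (0.991 and 0.997) that its values were close to whole before division. Depth was 20455413 to 20768023 reads. Mutant and Col-0 were compared within a table by limma 3.58.1 (R 4.3.3, prior trend) on log2(normalized reads + 1), so fold changes of low genes are understated, over genes whose mean was 10 or more. That mean was taken over Col-0 and mutant libraries together, so a low gene could pass through the group where it was higher. A gene was called at an absolute log2FC of at least 1 with unadjusted P under 0.01. Mutants were compared with one another on recovered reads by edgeR 4.0.16 (TMM, quasi-likelihood), with DESeq2 1.42.0 as an alternative, and p-values were adjusted by Benjamini-Hochberg over all genes tested. CPM and RPKM were computed from the recovered reads with TMM scaling and RefSeq exon lengths. Relatives were found with blastp 2.17.0 (E value at most 1e-10, longest protein a gene) and from fixed family lists, and all 32548 gene IDs matched the RefSeq TAIR10.1 annotation. The fits were tested on simulated data.

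Replicate numbers were checked for pairing before calls were compared. The differences between replicates 1 and 2 correlated over 20057 genes at 0.438 to 0.720 in all 10 pairs of genotypes, so the numbers were taken as pairs from the data, since no label explains them. The fit without the block is the main one, and blocked values are given where they change a call. Genes named are the 5 members, neighbours or relatives that were called (AT1G48400 with the block only) or are the closest paralogs, the 2 genes most correlated with each member, the 6 mutated genes and the 2 genes on each side of the threshold. *WOL*, *EXGT-A3*, AT5G45000 and the other adjoining genes named were chosen after their values were seen. The members and lists were chosen with earlier results of these data known. Alternatives tried were another pseudocount, no filter, other tools, the replicate block, an adjusted threshold and leaving out each library.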

Additional observations from a re-analysis of the deposited data

How the results depend on the processing

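Every log2FC of the 5 genes kept its sign under each alternative, which the choice of genes raised in every mutant favoured. Of 180 values for 20 gene and mutant pairs, 174 moved by less than 1 SD between replicates and 6 by more. The ratios to the reported value were 0.742 to 1.26. Leaving out 1 library cannot move a value by more than this SD, and dropping the filter or adding the block leaves it unchanged. Only the other pseudocount and the other tools could have moved a value by more, and the 6 came from the pseudocount of 5. The replicate block moved the count of genes that differed among the 4 mutants from 0 to 2 and of pair differences from 0 to 5, and DESeq2 gave 1 and 1. Leaving out each library gave 0 to 0 for both. Neighbours called stayed at 0 in each mutant by limma with a pseudocount of 5, edgeR, DESeq2, the block and without each library. With no filter 2 were called in *ld*, *AGL67* and AT5G44990, with at most 4 reads in a library, and with the block and an adjusted p under 0.05 the count was 1 in *fld* and 2 in *ld*. Relatives called with no filter were 1 in *fld*, 3 in *ld*, 1 in the *efl2 efl4* mutant and 5 in *sdg26 aprf1*. An adjusted p under 0.05 left 0 in *ld*, *efl2 efl4* and *sdg26 aprf1*, and with the block as well they were 5 in *fld*, 5 in *ld*, 7 in the *efl2 efl4* mutant and 0 in *sdg26 aprf1*. In *efl2 efl4* the count of 2 was 1 with a pseudocount of 5, 1 with DESeq2 and 1 to 2 without each library, the 1 being reached without either *efl2 efl4* library. With the block and the same rule the count in *efl2 efl4* was 3, AT1G48400 being the added gene, and the counts in the other mutants stayed as they were. The causes were not tested. With 2 libraries a genotype and few reads on 4 of the 5 genes, the intervals given limit what differences between mutants could be seen.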
